A study of Homo sapiens with 8 samples.

Results

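The genes described here are 7 human genes whose products work in nuclear speckles or are known for introns that stay in part of their nuclear transcripts, namely SRRM2, SON, SRRM1, LENG8, LUC7L3, PNISR and CLK1. Their members were the peaks of the RNA-binding protein RBM45 that share at least 1 base with the gene's hg19 span on the gene's strand. They came to 64 of 210878 peak entries in the first wild-type CLIP list, 55 of 65587 in the second, and 24 of the 13758 peak pairs that the authors deposited for the 2 lists. An entry is 1 peak on 1 strand. The genes were chosen by peak positions and overlaps in these same lists, so the counts, folds and overlaps below describe them and were not tested.

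The study mapped RBM45 on RNA and asked about its dependence on METTL3, the enzyme that makes most of the m6A in messenger RNA. HEK293T cells, an established line from transformed human embryonic kidney, were transduced with a lentivirus for FLAG-HA-tagged human RBM45 and cross-linked with ultraviolet light (254 nm, 300 mJ/cm2). Both libraries used here came from cells without the METTL3 knockout, called WT, and were pulled down through the HA tag (CLIP, cross-linking and immunoprecipitation). The study's 8 libraries also include size-matched inputs and a METTL3 knockout, each with 2 replicates, which were not analysed here. The tagged protein was made from the virus, and the labels used here do not name its promoter, say how its level compares with that of the cell's own RBM45, or say whether the replicates were separate cultures. Read counts were not used, so library depth is unknown and the amount of each gene's RNA was not measured, and its part in the peak numbers was not tested.

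Nuclear speckles are bodies between the chromatin that are rich in splicing factors. SON and SRRM2 are very large proteins that form the speckle scaffold. Detained introns are introns that stay in otherwise spliced, polyadenylated transcripts held in the nucleus, and genes for splicing factors and their kinases are among the known carriers. CLK1, a kinase that phosphorylates serine- and arginine-rich splicing factors, is a well-studied case.

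Peaks were very unevenly spread over the 7 genes. SRRM2, the speckle scaffold gene, held 30 entries in replicate 1, 33 in replicate 2 and 17 deposited pairs. LENG8, whose protein carries a SAC3-like domain, held 17, 13 and 3. LUC7L3, which encodes a partner of the U1 small nuclear ribonucleoprotein, held 9, 7 and 3, and CLK1 held 3, 1 and 1. SRRM1, a splicing coactivator gene, had 2 entries in replicate 1 and 1 in replicate 2, with no pair. SON had 2 entries in replicate 1 and none in replicate 2, and PNISR, which encodes a further serine- and arginine-rich nuclear protein, had 1 and none. SRRM2 and LENG8 together held 47 of the 64 entries in replicate 1 (73.4%) and 46 of the 55 in replicate 2 (83.6%).

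**Figure D1:**
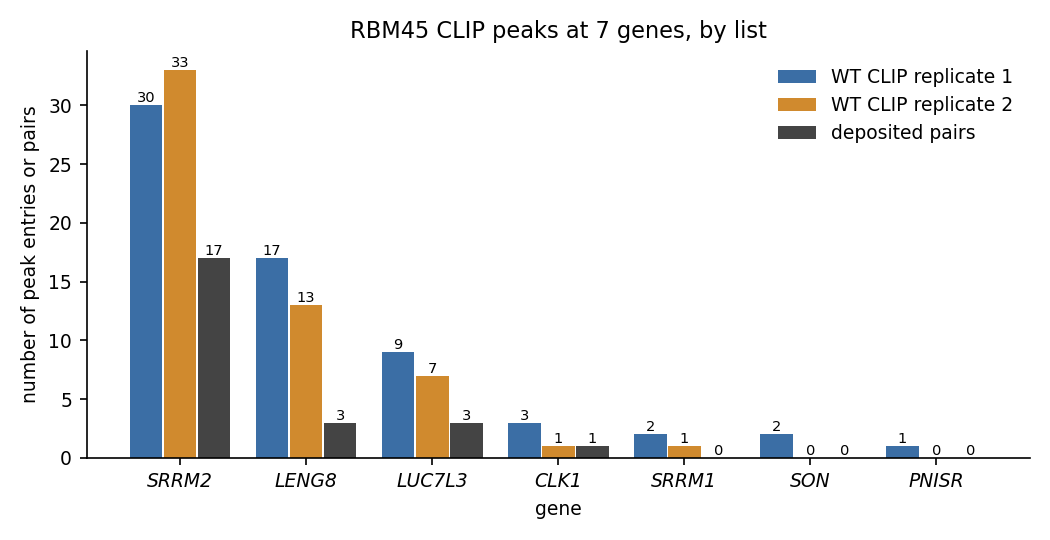
Bars give the number of peak entries at each of the 7 genes (x axis) in the WT CLIP lists of replicate 1 and replicate 2, and the number of deposited pairs (y axis, counts). SRRM2 and LENG8 stand above the other genes in both lists, and SRRM1, SON and PNISR have no pair.

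Set against gene length, the order was led by the same genes. SRRM2 (hg19 chromosome 16, 2802330 to 2821413, plus strand, 19.08 kb) had 1.57 entries per kb in replicate 1 and 1.73 in replicate 2. LENG8 (chromosome 19, 54960065 to 54973204, plus strand, 13.14 kb) had 1.29 and 0.989. CLK1 (chromosome 2, 201717732 to 201729422, minus strand, 11.69 kb) had 0.257 and 0.086, a range that takes in LUC7L3 (chromosome 17, 48796926 to 48833574, plus strand, 36.65 kb) with 0.246 and 0.191, so these neighbours were not separated. SRRM1 (chromosome 1, 24969594 to 24999772, plus strand, 30.18 kb) had 0.066 and 0.033, SON (chromosome 21, 34915350 to 34949812, plus strand, 34.46 kb) 0.058 and 0, and PNISR (chromosome 6, 99845927 to 99873207, minus strand, 27.28 kb) 0.037 and 0. Over all 7 spans, 172.5 kb, the mean density was 0.345 ± 0.037 entries per kb (SD, n = 2 lists).

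The 2 lists were closer in number at these genes than as a whole. Replicate 1 held 1.16 times as many entries as replicate 2 at the 7 genes and 3.22 times as many over all. At SRRM2 the shorter list had more entries, 33 against 30, and at LENG8 it had 13 against 17. The other 5 genes together had 17 entries in replicate 1 and 9 in replicate 2. The ratio over the 7 genes thus rests largely on SRRM2 and LENG8. No entry of either list lay within 5 kb before or after any of the 7 spans on the gene's strand. All entries of a gene were repeated equally often among the deposited rows, 5 times at SON, 4 times at CLK1, 2 times at LUC7L3 and PNISR and once at SRRM2, LENG8 and SRRM1. On the opposite strand only LENG8 had entries, 1 in replicate 1 and 2 in replicate 2, and each had the same start and end as an entry on the gene's own strand. Over the whole lists 1.84% and 1.66% of peaks were listed on both strands. How strand was given to a peak is not stated in the sources used here. It may come from a gene annotation and not from the reads, in which case neither the opposite strand nor the empty flanks measure binding, and this was not tested.

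Short motifs linked to m6A and to RBM45 were counted in the coding sequences of these genes. GGACT is a common form of the sequence in which METTL3 methylates adenosine, and GACGAC is a sequence that RBM45's RNA recognition motifs bind in structural work. Both were searched in the sense strand of the longest coding sequence of each gene in GENCODE release 29, with overlaps counted, and these sequences cannot overlap each other. The windows below are the 60-base coding stretches with the most GGACT in the 4 genes where such a stretch held 2 copies. They set the gene with the most peaks beside those with the fewest, and capitals mark GGACT.
SRRM2: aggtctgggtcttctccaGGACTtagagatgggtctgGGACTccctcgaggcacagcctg
SON: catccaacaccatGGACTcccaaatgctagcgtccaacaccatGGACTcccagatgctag
SRRM1: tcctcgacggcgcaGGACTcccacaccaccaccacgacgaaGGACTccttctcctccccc
PNISR: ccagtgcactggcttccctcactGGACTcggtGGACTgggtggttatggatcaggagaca
These stretches run from coding base 4318 to 4377 in SRRM2, 2180 to 2239 in SON, 1725 to 1784 in SRRM1 and 1127 to 1186 in PNISR, counted from the start codon. SON, with 2 peak entries in all, held 13 copies of GGACT in 7278 coding bases (1.79 per kb), and SRRM2, with 63, held 8 in 8256 (0.97 per kb). The median over 19677 human coding sequences was 0.966 per kb, and 72.4% held at least 1 copy. PNISR held 3 copies (1.24 per kb), LENG8 3 (1.14), SRRM1 3 (1.10), CLK1 1 (0.63) and LUC7L3 none in 1467 bases. Of coding sequences within 10% of its length, 81.8% held a copy in the case of LUC7L3, and the shares for the other genes ran from 82.5% at CLK1 upward, with every such sequence holding a copy for SON and SRRM2. GACGAC was found 3 times in SON and once each in SRRM1 and PNISR. It was found in none of SRRM2, LENG8, LUC7L3 and CLK1, the 4 genes with a deposited pair. Of all coding sequences, 20.0% held it. Among those close in length, 48.8% did for SRRM2, 30.2% for LENG8, 21.4% for CLK1 and 18.9% for LUC7L3. For the genes that held it, the shares were 53.2% for SON, 31.8% for SRRM1 and 27.6% for PNISR. At LENG8, CLK1 and LUC7L3 a lack of the motif was thus usual for the length, and nothing is read from the split. The coding sequences belong to another genome build than the peaks, so no peak could be placed on them, and introns and untranslated regions were not searched. A part of either motif in the peak numbers was not tested.

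At SRRM2, peaks ran along the whole gene and were densest toward its end. The first entry began 1119 bases after the gene start in replicate 1 and 1334 in replicate 2, and the last began 18885 and 18878 bases after it. Counted in 4 equal parts of the gene from start to end, replicate 1 had 8, 4, 5 and 13 entries and replicate 2 had 7, 7, 7 and 12. The entry with the highest −log10 p of the gene lay in the last part in both lists. The replicate 1 peak at 2818130 to 2818235 was enriched 8.36-fold with a −log10 p of 64.1, rank 93 of its list by that value. Its partner in replicate 2, at 2818127 to 2818236, had 10.3-fold and 56.4, rank 40. Fold enrichment is the caller's ratio over its background and, like −log10 p, is the authors' value for a single peak.

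Further strong pairs of SRRM2 lay next to it. The pair at 2819090 to 2819241 had 6.43-fold in replicate 1 and 6.91-fold in replicate 2, with −log10 p of 45.7 and 45.3. The peaks differed by 6 bases or fewer at either end. The pair at 2818743 to 2818818 had 8.93-fold and 5.47-fold. Near the start of the gene, the pair at 2804208 to 2804243 had 9.05-fold, the highest of the gene in replicate 1, and 5.47-fold in replicate 2. Counting pairs whose replicate 1 peak lay wholly inside, no 1-kb stretch held more than 3. Both stretches with 3 lay near the ends of the gene, from 2803881 to 2804243 and from 2820303 to 2821262. By peak midpoint, the strong pairs that begin at 2818130, 2818743 and 2819090 also fell within 1 kb. Weak pairs lay between these sites, down to 2.00-fold and 1.76-fold at 2810244 to 2810319. The widest entries were 265 bases in replicate 1, from 2817756 to 2818020, and 201 bases in replicate 2, from 2811726 to 2811926.

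The 17 pairs of SRRM2 were a close series. The median gap between neighbouring midpoints was 741 bases (range 70.5 to 3802), and the largest gap lay between 2804243 and 2808009. Among 13758 windows of the length of the SRRM2 span, each starting at a deposited pair, 53 held at least 17 pairs (0.39%), the median held 2, and 44.3% held only the pair they started at. Such windows overlap one another, so these shares describe crowding and are no test. Entries covered 13.86% of the SRRM2 span in replicate 1 and 11.15% in replicate 2.

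At LENG8 the widest peaks of the 7 genes lay near the end of the gene. Replicate 1 entries there reached 698 bases, from 54969793 to 54970490, and those of replicate 2 reached 279, from 54969806 to 54970084. The median widths did not separate the genes one way, with 53 bases at LENG8 and 64.5 at SRRM2 in replicate 1, and 75 and 51 in replicate 2. By peak midpoint, 8 of 17 LENG8 entries of replicate 1 and 12 of 13 of replicate 2 lay in the last 25% of the gene. No entry of replicate 1 began between 54964889 and 54969704. The replicate 1 entry with the highest −log10 p, 60.6 (rank 103 of its list), lay at 54972174 to 54972447 with 9.48-fold. The strongest of replicate 2 lay at 54970859 to 54970910 with 12.3-fold and a −log10 p of 31.6 (rank 123). It sat inside the 396-base replicate 1 peak at 54970836 to 54971231, which had 9.14-fold.

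The wide LENG8 peaks of replicate 1 were divided in replicate 2. Of 7 replicate 1 entries that overlapped replicate 2, 5 took in at least 2 replicate 2 entries, against 1 of 21 at SRRM2. These 5 were 272 to 698 bases wide, and the other 2 at LENG8 were 30 and 47. The divided entry of SRRM2 was its widest, at 265 bases, and its other overlapping entries were 31 to 257. Both genes thus differed in peak width too, and its part in the contrast was not tested. The share of such divided entries over the whole list was not counted. The 404-base entry from 54972756 to 54973159 took in 3, which covered 66.1% of it. The 698-base entry took in 2, which covered 55.7% of it, and the larger of these alone covered 40.0%. The authors' pairs are those where 1 replicate 2 peak covers at least 50% of the replicate 1 peak. Under that rule 4 of the 7 overlapping entries of LENG8 had no pair, although all 13 replicate 2 entries of the gene lay on a replicate 1 peak. Over the whole replicate 1 list, 18721 entries overlapped replicate 2 and 13758 were in a pair. Base by base, 99.4% of the replicate 2 peak length at LENG8 lay within replicate 1 peaks, 65.2% at SRRM2 and 33.5% at LUC7L3, beside 24.93% over the whole lists. The single replicate 2 entry of CLK1 lay wholly within a replicate 1 peak, and that of SRRM1 touched none. The 3 deposited pairs of LENG8 thus hold 3 of its 13 overlapping replicate 2 entries.

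Earlier in LENG8, peaks were mostly in 1 list. In the first 50% of the gene replicate 1 had 8 entries of 2.58-fold to 4.34-fold, beginning 39 bases after the gene start. Replicate 2 had 1 there, at 54962109 to 54962146 with 5.35-fold, paired with a replicate 1 peak of 3.83-fold. Nearer the end of the gene, the pair at 54971930 to 54971976, with 6.74-fold and 5.49-fold, had the highest lower fold of the gene's 3 pairs. The third pair, at 54971272 to 54971543, had 5.21-fold and 9.20-fold.

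**Figure D2:**
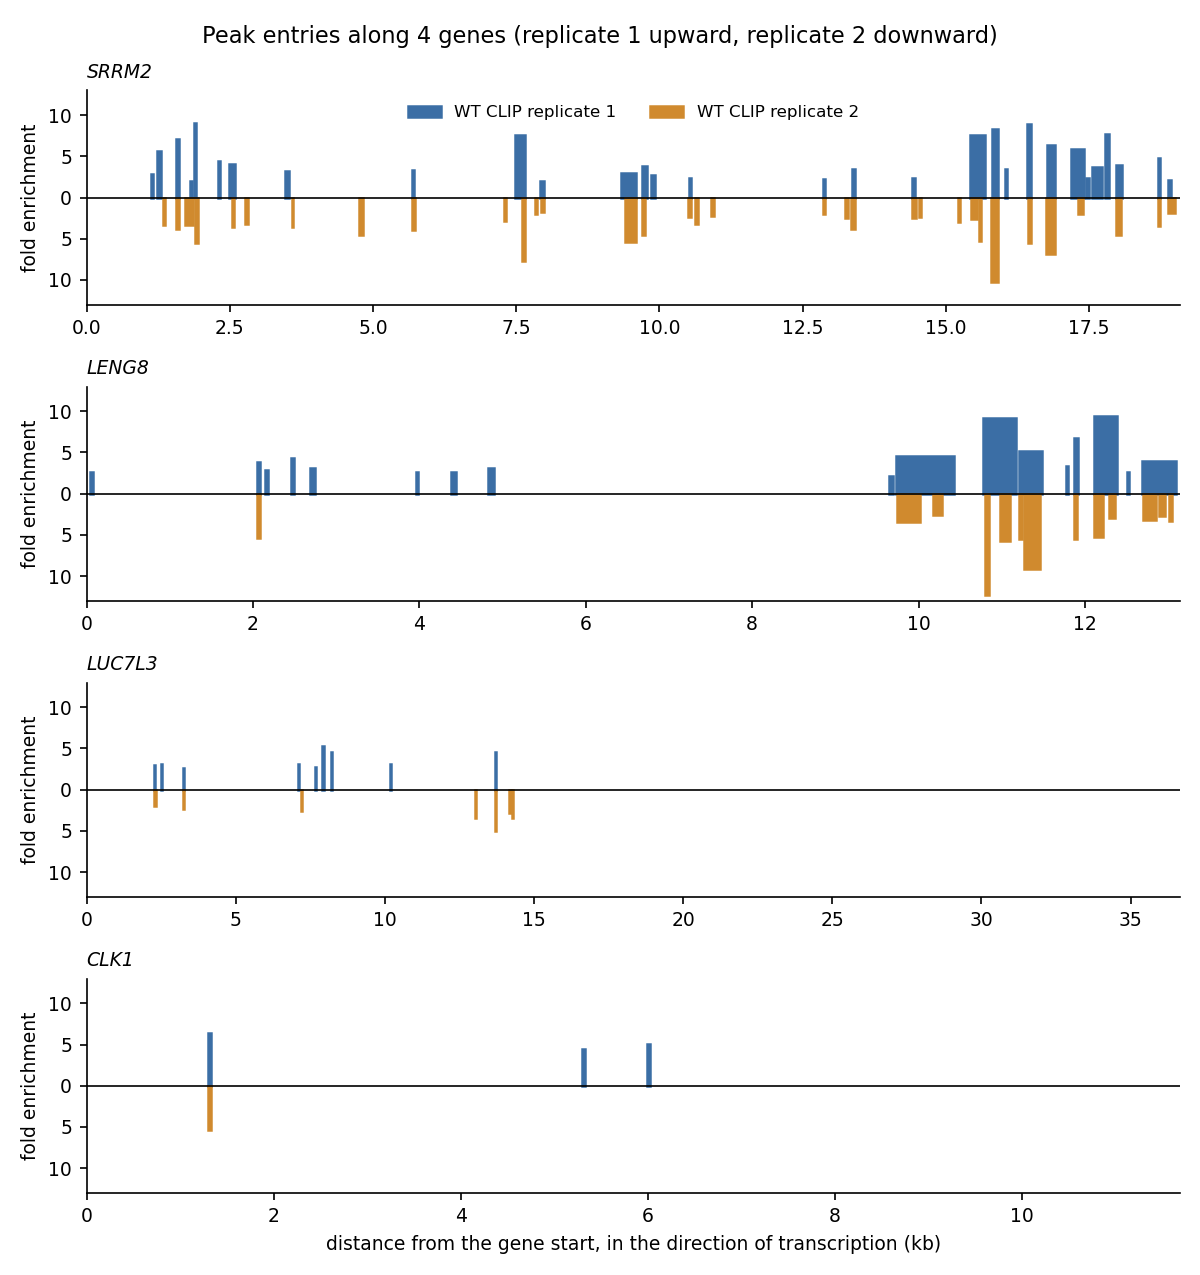
Each panel plots 1 gene from its start to its end in the direction of transcription (x axis, kb), with bars at the peak entries as wide as the peaks plus a thin outline, and bar height equal to fold enrichment (y axis, replicate 1 upward and replicate 2 downward). SRRM2 peaks run along the gene, the wide LENG8 peaks lie near the end of the gene with 12 of 13 replicate 2 entries in its last 25%, and all LUC7L3 peaks lie in the first 50%.

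At LUC7L3 every entry of both lists lay in the first 50% of the gene. Replicate 1 had 7 entries in the first 25% and 2 in the next 25%, and replicate 2 had 3 and 4. The last began 13690 bases after the gene start in replicate 1 and 14268 in replicate 2, in a span of 36649 bases. Its peaks were narrow, at most 53 bases in replicate 1 and 63 in replicate 2. The pair at 48810616 to 48810649 had 4.55-fold in replicate 1 and 5.07-fold in replicate 2, with −log10 p of 10.1 and 17.1, and the peaks differed by 1 base at the start. The other pairs, at 48799185 to 48799216 and 48800153 to 48800200, had 2.997-fold and 1.99-fold, and 2.61-fold and 2.40-fold. The entry of highest fold in replicate 1, 5.27-fold at 48804817 to 48804869, had no replicate 2 entry within 681 bases.

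CLK1 carried 1 pair, and it was placed almost to the base. The replicate 1 peak ran from 201728092 to 201728124 with 6.39-fold and a −log10 p of 11.9, and the replicate 2 peak from 201728092 to 201728123 with 5.42-fold and 9.09. It lay 1298 bases after the gene start in a span of 11691 bases. Replicate 1 also listed peaks at 201724093 to 201724123 (4.48-fold) and 201723402 to 201723431 (5.02-fold), with no entry of replicate 2 within 3969 bases. Whether any of these lies in a detained intron was not analysed here, since that needs exons in the hg19 build.

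SON, SRRM1 and PNISR showed few peaks, and none was shared. The SON entries, at 34923710 to 34923741 and 34924078 to 34924138, had 2.00-fold and 2.29-fold, below the replicate 1 median of 3.12-fold, while those of SRRM1 and PNISR in replicate 1 lay above it. SRRM1 had 4.08-fold at 24983790 to 24983819 and 3.84-fold at 24996652 to 24996688 in replicate 1. In replicate 2 it had 2.91-fold at 24981371 to 24981422, which is 2368 bases from the nearest replicate 1 entry. The only PNISR entry, at 99860077 to 99860106, had 4.13-fold and a −log10 p of 9.13. None of these 5 replicate 1 entries had a replicate 2 counterpart. A list of peaks past a threshold does not show that RBM45 was absent there.

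Over the 7 genes, 39 of 55 replicate 2 entries shared at least 1 base with a replicate 1 entry, 70.9% beside 28.8% of the whole list. From the other side, 32 of 64 replicate 1 entries overlapped replicate 2, beside 8.88% of the list. The deposited pairs took up 24 of the 55 replicate 2 entries (43.6%, beside 20.9%) and 24 of the 64 replicate 1 entries (37.5%, beside 6.52%). SRRM2 gave 22 of its 33 replicate 2 entries and LENG8 13 of 13. The other 5 genes gave 4 of 9. The choice of these genes used the overlaps, and neighbouring peaks of a gene are not independent, so nothing is read from these shares.

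Peaks wider than 100 bases were found at SRRM2 and LENG8 and at none of the other 5 genes. Over all 7 genes the median width was 47.5 bases in replicate 1 and 52 in replicate 2, beside 30 and 31 in the whole lists. At LUC7L3 the medians were 33 and 31 bases and at CLK1 31 and 32, and the PNISR entry had 30. Entries wider than 100 bases numbered 13 of 64 in replicate 1 and 12 of 55 in replicate 2. In the whole lists such entries made up 1.9% and 0.659%. Above 5-fold were 17 of 64 in replicate 1 (26.6%, beside 9.16% of the list) and 16 of 55 in replicate 2 (29.1%, beside 18.0%). The median fold was 3.76 beside 3.12 in replicate 1 and 3.45 beside 3.81 in replicate 2. The median −log10 p was 7.44 beside 3.70 and 7.51 beside 4.24. Wider peaks overlap more readily under a rule of 1 shared base, and the part of width in the overlap was not tested.

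The 24 deposited pairs had similar folds in both lists, as did most pairs of the whole list. In all 24 the folds lay within a factor of 2, beside 90.5% of all pairs. That share is near the background and 17 of the 24 pairs lie in SRRM2, so nothing is read from it. The log2 ratio of replicate 2 to replicate 1 had a median of -0.01 and an SD of 0.48 across the 24 pairs, beside 0.04 and 0.61 in the whole list. Replicate 1 was the higher in 12 of 24, beside 46.7% of all pairs. Both peaks exceeded 5-fold in 7 pairs, 29.2% beside 13.9% of all pairs, and these were 4 in SRRM2, 2 in LENG8 and 1 in CLK1. The bases in common had a median of 42, beside 30 in all pairs, and the midpoints were a median of 7.5 bases apart, beside 4. The pair ranked by its lower fold stood highest at SRRM2, 2818130 to 2818235, which was 117 of 13758.

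**Figure D3:**
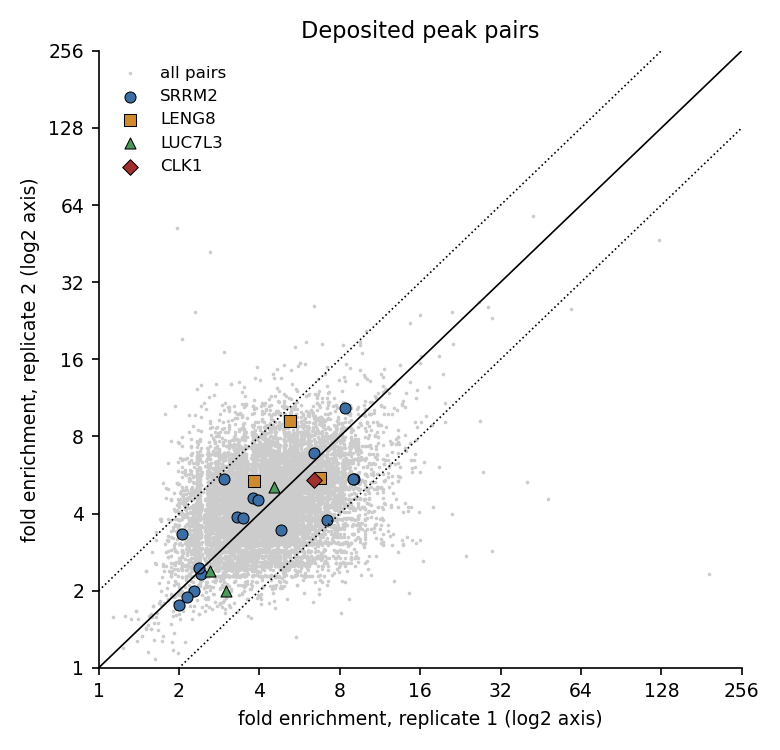
Each point is a deposited pair, placed by the fold enrichment of its replicate 1 peak (x axis) and its replicate 2 peak (y axis), both on log2 axes, with all 13758 pairs in grey. The solid line marks equal folds and the dotted lines a factor of 2. All 24 pairs of SRRM2, LENG8, LUC7L3 and CLK1 lie between the dotted lines, as do 90.5% of all pairs.

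The name detained-intron genes was set beside the annotation, since the peak lists hold no measure of intron retention. The annotated type retained intron is a label of transcripts and does not show that they are held in the nucleus, so this comparison does not check the name. In GENCODE release 29, 6 of the 7 genes had at least 1 transcript of the type retained intron, beside 46.1% of 19969 protein-coding genes. SRRM2 had 13, more than 99.5% of coding genes, CLK1 8, SON 6, SRRM1 5, LUC7L3 3 and LENG8 1, and PNISR had none. The 7 genes also had more annotated transcripts of any type, a median of 20 beside 6, and the part of that number in the comparison was not tested. The order of these counts was not that of the peaks: LENG8, second in peaks, had 1 such transcript, and SON, with 2 entries in all, had 6. Introns made up 46.0% of the span of the longest coding transcript at LENG8 and 51.0% at SRRM2. In the other 5 genes they made up 74.7% at SON, 80.9% at PNISR, 82.2% at CLK1, 89.4% at SRRM1 and 92.9% at LUC7L3. The genes with the most peaks were the 2 with the smallest share of intron, and their longest exons were 6701 bases at SRRM2 and 3702 at LENG8. SON, with an exon of 5916 bases, and PNISR, with one of 3580, had long exons too. No peak was placed in an exon or intron, and a part of either in the peak numbers was not tested.

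**Figure D4:**
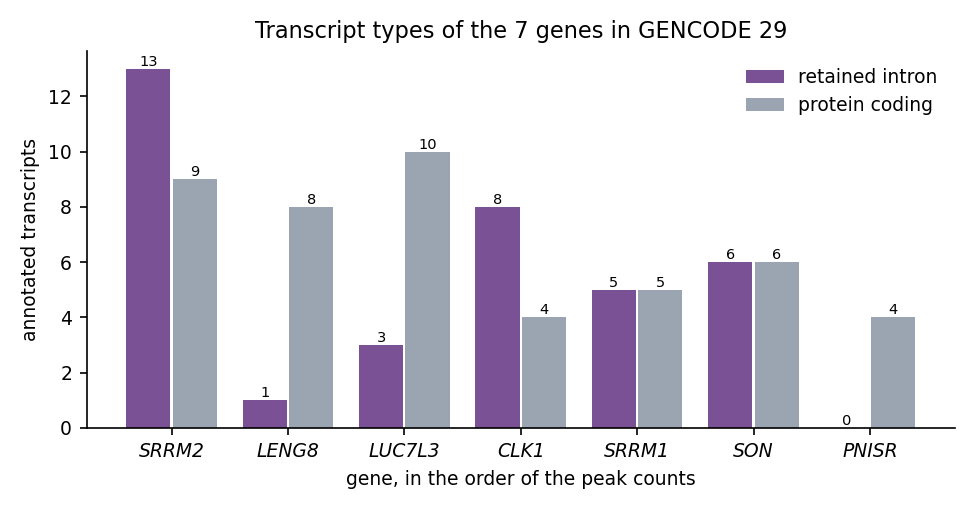
Bars give the number of transcripts annotated as retained intron and as protein coding in GENCODE release 29 (y axis) for each gene (x axis, ordered by peak entries). SRRM2 has 13 retained-intron transcripts, LENG8 has 1 and PNISR has none.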

How the data were processed

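Peak lists of the 2 WT CLIP libraries and the deposited list of their pairs were used. Per the submitters' processing notes, the build was hg19 and the tools, with no role given, were MACS2 2.1.1.20160309, Novoalign 3.09.00, HOMER 4.11.1, deepTools 3.2.1 and bedtools 2.25.0. The peak names carry MACS2 and a p threshold of 0.005. The authors' lists hold a score, the fold enrichment as a ratio to background and an unadjusted −log10 p for each peak, and the deposited pair list also gives the bases in common. The sources used here do not say whether peaks were called against the input. The 8 columns of the deposited count table match no sample label and were not used, so the planned count test was not run. A further 25 speckle or retained-intron genes were not analysed here, because no hg19 annotation was used. The peak sequences were not analysed here either.

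Rows repeating a peak on the same strand were merged into 1 entry. Peaks overlapped when they shared at least 1 base on a strand, and the overlap count was tested on simulated data against a direct comparison of all intervals. All 7 genes are named. Their single peaks are the strongest and widest of each list, the pairs with the highest lower fold, the densest 1-kb stretch and, chosen after their values were seen, further pairs and the peaks of sparse genes. The members and lists were chosen with earlier results of these data known. GENCODE release 29 (GRCh38) gave transcript types, exons and coding sequences, without joining its coordinates to the peaks. Values were computed in Python 3.11.15 (pandas 2.3.3, numpy 2.4.6, scipy 1.17.1) and drawn with matplotlib 3.10.9.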

Additional observations from a re-analysis of the deposited data

How the results depend on the processing

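Leaving out genes and requiring 50% of the replicate 1 peak were alternatives chosen after seeing the data. The 39 overlapping replicate 2 entries (70.9%) fell to 22 (40.0%, beside 19.6% of the whole list) with 50% of both peaks required, and to 24 (43.6%, beside 20.9%) for 50% of the replicate 1 peak, because fewer peaks qualify. In the stronger 50% of each list there were 34 such entries (70.8%, beside 33.2% of the whole list). With replicate 1 cut to as many peaks as replicate 2 there were 36 (65.5%, beside 18.6%). Ignoring strand left 39 (70.9%, beside 28.8%). Few peaks are listed on both strands and strand may come from an annotation, so this setting could change little. Without SRRM2 there were 17 overlapping entries (77.3%, beside 28.8%), 7 pairs and 0.183 entries per kb. Without LENG8 there were 26 (61.9%, beside 28.8%), 21 pairs and 0.279 entries per kb. Without both genes there were 4 overlapping entries (44.4%, beside 28.8%), 4 pairs and 0.093 per kb. Requiring both peaks above 5-fold left 7 of the 24 pairs. The density of 0.345 per kb was 0.319 to 0.371 with 1 replicate left out. Totals per list stayed within 1.5 times under every setting run, but LENG8 fell from 17 to 10 entries in the reduced replicate 1 list, and SON from 2 to 0 in both shorter lists. Counting rows as deposited raised SON to 10, PNISR from 1 to 2, LUC7L3 from 9 to 18 and from 7 to 14, and CLK1 from 3 to 12 and from 1 to 4, because each peak there is listed repeatedly. No value reversed. No paired analysis was possible because no test was run and the count columns match no sample. Unknown depth limits what a missing peak means.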
